A study of Mus musculus with 4 samples.

Results

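Nitric oxide synthesis and cGMP genes were followed through the vascular cells of the mouse heart. The group held 10 genes of the 31253 measured, taken by gene symbol: Nos3, Gch1, Arg2, Ddah1, Ddah2, Nosip, Nostrin, Gucy1a1, Gucy1b1 and Prkg1. No measured value entered the choice of the genes by the rule itself. Left ventricular cells that carried the red reporter protein RFP had been collected by FACS for the Chromium 3′ assay of 10x Genomics, which counts unique molecular identifiers (UMIs), 1 for each captured transcript.

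There were 4 libraries. NC libraries 1 and 2 came from mice on the Chow diet, which had 10% of its energy from fat and normal water. HFpEF libraries 1 and 2 came from mice on "HFD plus L-NAME", with 60% of energy from fat and 0.5 mg/mL L-NAME, an inhibitor of nitric oxide synthases, in the drinking water. This regimen is a model of heart failure with preserved ejection fraction. All mice carried the tamoxifen-inducible Cdh5-CreER transgene, which is driven by an endothelial promoter, the tdTomato reporter behind a stop cassette, and at least 1 floxed allele of Scarb1, the gene of SR-B1. The study describes both Sfl/+/RΔEC and Sfl/fl/RΔEC mice under each diet, and the labels do not give the genotype of a library. It compares these 4 groups in its single-cell data, so the 4 libraries may be 1 for each diet and genotype. In that case the libraries of a diet would not be replicates. The number of mice in a library, their age and the time on the diet are not given in the labels. The labels do not say whether the libraries of a diet came from separate animals, so p-values measure only the spread between these libraries, in which genotype, animal and technical differences cannot be told apart.

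Nitric oxide is made from arginine in endothelial cells (ECs) by the endothelial synthase eNOS, the product of Nos3, which needs tetrahydrobiopterin as a cofactor. It diffuses into neighbouring mural cells, the pericytes of capillaries and the smooth muscle cells of larger vessels. There it binds soluble guanylyl cyclase, a dimer of an α and a β subunit, whose product cGMP activates the cGMP-dependent protein kinase and relaxes the cell.

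Cells with more than 200 genes and under 20% mitochondrial UMIs numbered 40154 of 41843. The kept cells of a library held 10801149 to 47117650 UMIs, and the median depth was 3754 and 4127 UMIs per NC cell against 1736.5 and 1619 per HFpEF cell. Libraries shared 9 to 39 cell barcodes per pair, at most 0.715% of the smaller library. Clusters were gated by marker genes into X-like classes, which are called by the short name of X here. The ECs comprised 33000 capillary cells, 2600 artery cells with Fbln5, Gja5 and Gja4 among their leading genes, 1997 vein cells with Selp and Vwf, and 99 lymphatic cells with Ccl21a, Mmrn1 and Lyve1. A cluster of 247 ECs with Dcn, H19 and Npr3 among its leading genes mixed endocardial, vein and fibroblast markers and was left unnamed, and 168 ECs were proliferating. The RFP sort was meant for ECs, but 212 cells were pericytes with Kcnj8 and Vtn among their leading genes, and 136 were smooth muscle cells with Tagln, Acta2 and Myh11. Another 1202 cells had mural markers together with EC markers near the EC level and were kept apart as mixed mural cells.

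Levels are given as CPM, the UMIs of a gene per 1000000 UMIs of a class in a library. The assay counts transcript ends without division by length, so a gene is compared between classes and not with another gene. The classes come from clustering the same cells, so differences between classes are described without a test, as within-library log2 ratios with 1 CPM added to both sides (mean ± SD, n = 4 libraries). The 10 genes were kept out of the genes used for clustering.

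The synthase gene, Nos3, was an EC gene that was higher in artery and vein ECs than in capillary ECs. Nos3 (ENSMUSG00000028978, chr5:24364810-24384474 of GRCm38, plus strand) had levels of 126 and 122 CPM in NC capillary ECs against 106 and 104 CPM in HFpEF capillary ECs, from 888 to 3800 UMIs. The artery levels were 190 and 175 CPM for NC against 179 and 167 CPM for HFpEF. The vein levels were 170 and 156 CPM for NC against 184 and 144 CPM for HFpEF. All 4 libraries had the lowest of these 3 levels in capillary ECs. The log2 ratio of artery to capillary ECs was 0.63 ± 0.10, a 1.55-fold higher level, and that of vein to capillary ECs was 0.51 ± 0.20, a 1.43-fold higher level. The artery ratio rested on the way in which artery ECs were taken: with a marker gate on each cell in place of clusters it was 0.07, whereas the vein ratio was 0.41. Artery ECs were above vein ECs in only 3 of 4 libraries, by a log2 ratio of 0.12 ± 0.11, a mean close to its spread. The unnamed Npr3 cluster followed with 142.3 ± 32.3 CPM and lymphatic ECs with 74.7 ± 21.6 CPM, the latter from 35 UMIs in all.

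Mural cells held almost no Nos3. The pericytes yielded 2 UMIs, both in NC libraries, and the smooth muscle cells 1 UMI. Over all libraries, the level in capillary ECs was 25.4 times that in pericytes, with a 95% exact interval for counting error from 7.02 to 210. Pericytes also held 319 UMIs of the EC markers Pecam1, Cdh5, Tie1 and Esam, and at the Nos3 to EC-marker ratio of capillary ECs these would have come with 11.4 Nos3 UMIs, more than the 2 seen. Mixed mural cells, whose EC markers were near the EC level by definition, had 82.6 to 113 CPM. At the level of cells, after each cell was thinned to 1000 UMIs, 10.3% of capillary ECs had a Nos3 UMI (23.6% before thinning), against 15.7% of artery ECs, 15.2% of vein ECs, 1 of 152 pericytes and 0 of 125 smooth muscle cells. Fibroblasts, which should lack the gene, had it in 1.94% of 103 cells. Their unthinned median was 3301.5 UMIs, while that of capillary ECs was 2068. Nos3 overlaps Atg9b and an antisense gene on the other strand, and the sources used here do not say how such UMIs were assigned.

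**Figure D1:**
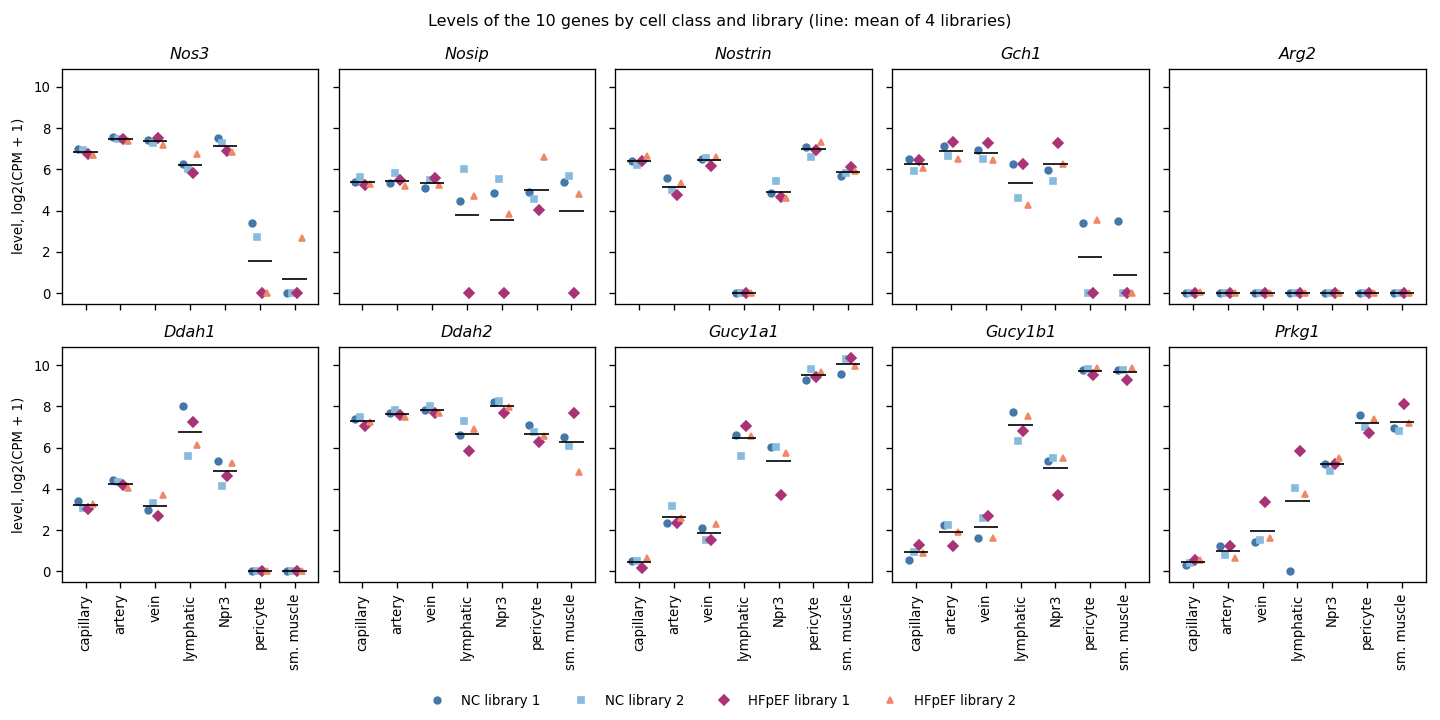
Level of each of the 10 genes, in CPM on a log axis, by cell class, with 1 point per library and a bar at the mean of the 4 libraries. Nos3 and Gch1 are high in the EC classes and near 0 in pericytes and smooth muscle cells, whereas Gucy1a1, Gucy1b1 and Prkg1 are high in these and near 0 in capillary ECs.

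Gch1 (ENSMUSG00000037580, chr14:47153895-47189413, minus strand) encodes GTP cyclohydrolase 1, the first and rate-limiting enzyme of tetrahydrobiopterin synthesis, and its order over the classes was close to that of Nos3. The capillary levels were 88.8 and 59.96 CPM for NC against 85.8 and 66.4 CPM for HFpEF. The artery levels were 138 and 97.8 CPM for NC against 159 and 89.7 CPM for HFpEF, and the vein levels 122 and 89.2 against 153 and 86.0 CPM. The log2 ratio to capillary ECs was 0.66 ± 0.19 in artery ECs and 0.55 ± 0.20 in vein ECs, above 0 in 4 of 4 libraries for both. Artery ECs were above vein ECs in 4 of 4 libraries by only 0.10 ± 0.06. Pericytes held 2 Gch1 UMIs, where 7.18 would have come with their EC-marker UMIs, and smooth muscle cells held 1. The level in capillary ECs was 16.0 times that in pericytes (95% exact interval for counting error 4.44 to 133). B and T cells, unlike pericytes, had Gch1 in 11.5% and 12.5% of their thinned cells (6 of 52 and 6 of 48), against 7.06% of capillary ECs. With only 6 such cells each, no order against capillary ECs is drawn.

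Gch1 also differed between the libraries of a diet. In capillary, artery and vein ECs alike, both libraries numbered 1 were above both libraries numbered 2. Of 7222 genes with at least 10 CPM in each of these classes, 67 (0.928%) had this pattern and 97 (1.34%) the opposite one. Among the 5 genes of the pathway at that level, Gch1 alone had it. The labels do not say what the number of a library stands for, and this pattern was noticed after the values were seen.

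Of the genes that set the supply of arginine and of synthase inhibitors, Ddah2 was measured in every vascular class, Ddah1 in ECs and Arg2 in none. The Ddah enzymes break down asymmetric dimethylarginine, an inhibitor of nitric oxide synthases made in the body, and arginase 2, from Arg2, uses up arginine. Ddah2 (ENSMUSG00000007039, chr17:35059035-35062095, plus strand) had 164, 177, 130 and 148 CPM in capillary ECs of NC library 1, NC library 2, HFpEF library 1 and HFpEF library 2. It was higher in artery ECs by 0.36 ± 0.12 and in vein ECs by 0.53 ± 0.09 on the log2 scale, in 4 of 4 libraries for both, and vein ECs were above artery ECs in 4 of 4 libraries (223.1 ± 24.0 against 198.6 ± 20.6 CPM). The Npr3 cluster had 263.4 ± 46.1 CPM, above vein ECs in 3 of 4 libraries. Pericytes had 102.5 ± 24.8 CPM from 47 UMIs, where 15.7 would have come with their EC-marker UMIs, and smooth muscle cells 97.5 ± 77.2 CPM. Pericytes lay below capillary ECs in 4 of 4 libraries (log2 ratio -0.61 ± 0.22), and this ratio was -0.18 with a marker gate on each cell.

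Ddah1 (ENSMUSG00000028194, chr3:145758675-145894277, plus strand) was low in blood vessel ECs and set lymphatic and artery ECs apart from capillary ECs. Lymphatic ECs had 256, 47.2, 150 and 68.0 CPM in the 4 libraries, from 49 UMIs in all, against 9.57, 7.54, 7.26 and 8.62 CPM in capillary ECs. The lymphatic level was thus the most variable and the highest of the classes, above the Npr3 cluster (29.3 ± 10.8 CPM) in 4 of 4 libraries. Artery ECs had 20.7, 19.2, 17.5 and 15.6 CPM, 2.08 times the capillary level (log2 ratio 1.06 ± 0.20, above 0 in 4 of 4 libraries), and vein ECs did not differ from capillary ECs beyond their spread (-0.03 ± 0.41). Pericytes and smooth muscle cells had 0 Ddah1 UMIs in all 4 libraries. A count of 0 in the 444713 UMIs of pericytes allows up to 6.75 CPM, so that capillary ECs were at least 1.25-fold and artery ECs at least 2.67-fold higher. Arg2 (ENSMUSG00000021125, chr12:79130777-79156301, plus strand) had 1 UMI, in capillary ECs of HFpEF library 2, and 0 in every other class and library.

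The remaining partners of eNOS had unlike patterns. Nosip (ENSMUSG00000003421, chr7:45062429-45078210, plus strand), whose product binds eNOS, was nearly flat over capillary, artery and vein ECs and pericytes. It had 41.1 ± 5.5 CPM in capillary ECs, 43.3 ± 8.9 in artery ECs, 40.3 ± 6.6 in vein ECs and 40.1 ± 36.5 in pericytes, and none of these neighbours differed beyond their spread. The pericyte value was the mean of 28.8, 22.4, 15.01 and 94.2 CPM from 17 UMIs in all. The Nosip log2 ratio to capillary ECs was -1.84 ± 2.33 in the Npr3 cluster, below 0 in 4 of 4 libraries. It was -1.59 ± 2.48 in lymphatic ECs and -1.42 ± 2.56 in smooth muscle cells, below 0 in 3 of 4 libraries for both. HFpEF library 1 was at -5.24 in each of these small classes, since no Nosip UMI was seen there. Such a count allows up to 35.7, 56.2 and 206 CPM in them, against 36.7 CPM in capillary ECs. The other libraries ran from -1.46 to -0.13 in the Npr3 cluster, -0.89 to 0.35 in lymphatic ECs and -0.49 to 0.05 in smooth muscle cells. The 3 means thus rested largely on that library.

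Nostrin (ENSMUSG00000034738, chr2:69135800-69189330, plus strand) encodes an adaptor that binds eNOS and takes part in its removal from the plasma membrane. With classes taken by clusters, Nostrin went against Nos3 in artery ECs and pericytes. With a marker gate on each cell, the artery excess of Nos3 nearly vanished and the pericyte excess of Nostrin was lost. Artery ECs, where Nos3 was above its capillary level, had only 47.3, 31.4, 25.5 and 38.7 CPM of Nostrin, against 82.5, 73.2, 83.3 and 99.4 CPM in capillary ECs. The artery level was below the capillary level in 4 of 4 libraries (log2 ratio -1.25 ± 0.36, or -0.37 with a marker gate on each cell). Vein ECs had 87.1 ± 10.97 CPM and did not differ from capillary ECs beyond their spread (0.04 ± 0.23). Lymphatic ECs had 0 Nostrin UMIs in all 4 libraries, and since 0 of 436060 UMIs allows up to 6.88 CPM, the capillary level was at least 12.6-fold higher. Pericytes, which almost lacked Nos3, had the highest Nostrin level, with 134, 95.3, 120 and 157 CPM.

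The pericyte value rested on 14, 17, 8 and 15 UMIs. Their sum was 54, where 8.65 UMIs would have come with the EC-marker UMIs of pericytes at the capillary ratio. Nos3 in the same cells was below its own such value. The part of stray EC RNA in the mural values of Nostrin, Nos3, Gch1 and Ddah2 was not tested. The log2 Nostrin ratio of pericytes to capillary ECs was 0.56 ± 0.14, above 0 in 4 of 4 libraries. It ended at -0.05 with a marker gate on each cell, so the order of these classes depended on how the pericytes were taken. Smooth muscle cells had 28 Nostrin UMIs (58.5 ± 7.7 CPM), where 6.02 would have come with their EC markers. In thinned cells, 13.2% of 152 pericytes had a Nostrin UMI (95% exact binomial interval 8.23 to 19.6), against 8.19% of capillary ECs (7.86 to 8.52), 3.10% of artery ECs (2.44 to 3.88), 2.40% of smooth muscle cells (0.50 to 6.85) and 1.94% of fibroblasts. Without thinning the pericyte and capillary shares were 20.8% and 18.6%.

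The receptor of nitric oxide was found in mural cells. Gucy1a1 and Gucy1b1 encode the α1 and β1 subunits of soluble guanylyl cyclase. Gucy1b1 (ENSMUSG00000028005, chr3:82032006-82074689) and Gucy1a1 (ENSMUSG00000033910, chr3:82092427-82145789) lie next to each other on the minus strand of chromosome 3, with a gap of 17.7 kb and 0 genes between them in GENCODE. Because the 2 genes rose and fell together over the classes, the sequence before their starts is shown, from RefSeq on GRCm38.p6, 5′ to 3′ on the minus strand, with the GC box (GGGCGG) and CCAAT motifs on either strand in capitals. The first is the stretch at chr3:82074712-82074961 that ends at the base before the start of Gucy1b1. The second, at chr3:82145790-82145900, is the part of the corresponding stretch of Gucy1a1 that lies outside the gene's GENCODE span.
Gucy1b1: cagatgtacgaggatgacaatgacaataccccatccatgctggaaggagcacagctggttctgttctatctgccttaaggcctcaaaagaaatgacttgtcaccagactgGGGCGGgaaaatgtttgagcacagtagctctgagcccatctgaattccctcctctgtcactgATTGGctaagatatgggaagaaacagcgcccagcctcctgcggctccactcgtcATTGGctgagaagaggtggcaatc
Gucy1a1: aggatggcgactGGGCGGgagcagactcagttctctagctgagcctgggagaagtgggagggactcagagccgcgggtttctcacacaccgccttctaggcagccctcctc

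Each stretch held 1 GC box, a motif present in 35.7% of 32851 promoters of 300 bases. Counted to the RefSeq starts, it lay 140 bases before that of Gucy1b1 and 238 bases before that of Gucy1a1. The latter start lies inside the GENCODE span of the gene, beyond the end of the stretch shown. The Gucy1b1 promoter also held 2 CCAAT motifs (37.4% of promoters) and 3 E-boxes (CANNTG, 72.3%), and the Gucy1a1 promoter 0 CCAAT motifs and 1 E-box, which lies outside the stretch shown. Another RefSeq start of Gucy1a1 had none of these. The CArG box, a motif known from smooth muscle genes, is in 1.63% of promoters, and its letters were in neither window. These matches are descriptions of the letters only. Promoters of 8 of the 10 genes were matched, all but Nos3 and Arg2.

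Gucy1a1 had 614, 886, 691 and 806 CPM in pericytes and 765, 1272, 1308 and 982 CPM in smooth muscle cells of NC library 1, NC library 2, HFpEF library 1 and HFpEF library 2. Gucy1b1 had 864, 897, 736 and 921 CPM in pericytes and 866, 875, 619 and 918 CPM in smooth muscle cells. Smooth muscle cells were above pericytes in 4 of 4 libraries for the α1 subunit (log2 ratio 0.51 ± 0.29), while the β1 subunit did not differ beyond its spread (-0.07 ± 0.12). The smooth muscle cells of HFpEF library 1 were 8 cells with 19 and 9 UMIs of the 2 genes. Capillary ECs had 0.12 to 0.58 CPM of Gucy1a1 and 0.44 to 1.43 CPM of Gucy1b1, from 41 and 76 UMIs in 33000 cells. Pericytes were 542-fold and 451-fold above them on the log2(CPM + 1) scale, which understates the difference.

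Some single mural cells had UMIs of both subunits. Whether this exceeded the overlap of independent detection was not tested. After thinning to 1000 UMIs, 37 of 152 pericytes (24.3%) had a UMI of both, 33 of Gucy1a1 alone and 40 of Gucy1b1 alone. Among 125 smooth muscle cells, 45 (36.0%) had both and 17 had neither. Of 26700 capillary ECs 0 had both, of 2356 artery ECs 0, and of 1811 vein ECs 1. The share with Gucy1a1 was 46.1% in pericytes (59.9% before thinning), 65.6% in smooth muscle cells, 0.0337% in capillary ECs and 0.971% in fibroblasts, and that with Gucy1b1 was 50.7%, 56.8%, 0.0861% and 4.85%.

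**Figure D2:**
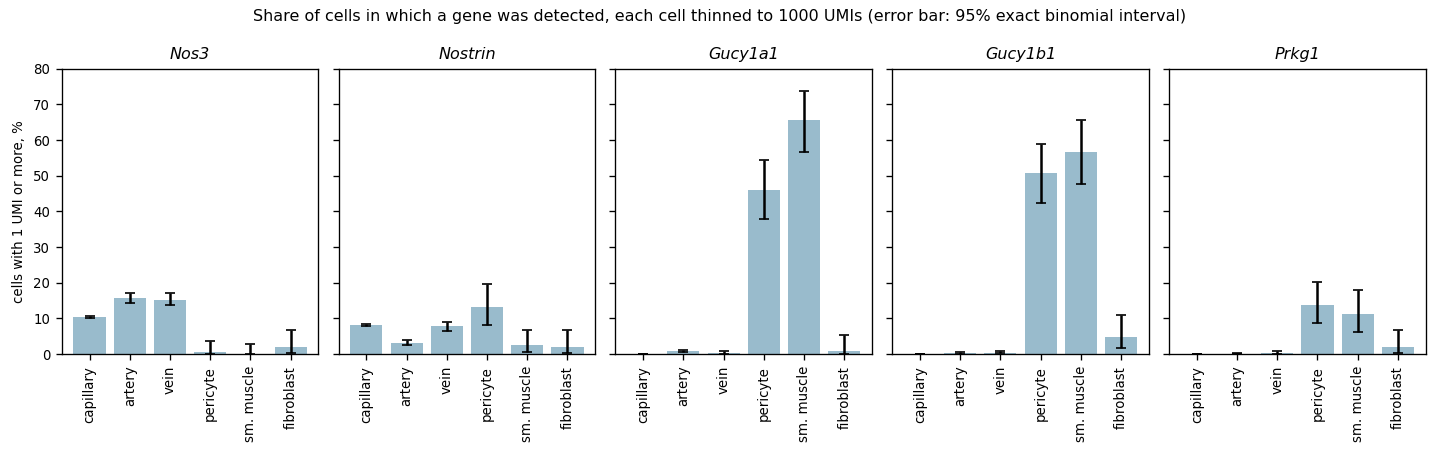
Share of cells with at least 1 UMI of a gene after each cell was thinned to 1000 UMIs, in percent by cell class, with 95% exact binomial intervals that cover counting error only. Gucy1a1 and Gucy1b1 were seen in 46.1% and 50.7% of pericytes and in under 0.1% of capillary ECs, while Nos3 was seen in 10.3% of capillary ECs.

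The few UMIs of the cyclase genes in blood vessel ECs were compared with the pericyte markers in the same cells. Capillary ECs held 14135 UMIs of 8 pericyte markers, and at the pericyte ratio these would have come with 430 UMIs of Gucy1a1 and 482 of Gucy1b1, far more than the 41 and 76 seen. Of these marker UMIs 13459 were of Rgs5 alone. Without Rgs5, a choice made after the data were seen, the values were 57.9 and 64.9 UMIs. In artery ECs 52 and 29 UMIs were seen, against 130 and 146 with all 8 markers and 11.98 and 13.4 without Rgs5. Whether the counts in artery ECs lay above or below such values thus depended on Rgs5. The part of stray mural RNA in the EC values was not tested.

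Lymphatic ECs and the Npr3 cluster stood apart from the other ECs. Lymphatic ECs had 96.0, 47.2, 131 and 92.7 CPM of Gucy1a1 and 213, 78.7, 112 and 185 CPM of Gucy1b1, above capillary ECs in 4 of 4 libraries for both. Their 37 and 66 UMIs were more than the 0.820 and 0.920 that would have come with their 27 pericyte-marker UMIs, or 1.80 and 2.02 without Rgs5. Among 88 thinned lymphatic ECs, 12.5% had a Gucy1b1 UMI (95% exact binomial interval 6.41 to 21.3) and 3.41% a Gucy1a1 UMI (0.71 to 9.64). The Npr3 cluster had 48.3 ± 24.8 CPM of Gucy1a1 and 35.3 ± 15.8 CPM of Gucy1b1 from 65 and 47 UMIs, where 2.67 and 3.00 would have come with its pericyte markers. The Npr3 cluster also had fibroblast markers, and fibroblasts themselves had 20 and 16 UMIs of the 2 genes in 2 and 3 of the 4 libraries.

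Prkg1 (ENSMUSG00000052920, chr19:30564489-31765033, minus strand), the gene of cGMP-dependent protein kinase 1, followed the cyclase genes at a lower count. Pericytes had 192, 129, 105 and 168 CPM and smooth muscle cells 121, 112, 275 and 145 CPM, which did not differ beyond their spread (log2 ratio 0.08 ± 0.90). The value of 275 CPM was 4 UMIs. The Npr3 cluster had 36.3 ± 6.9 CPM, lymphatic ECs 21.1 ± 24.4 CPM from 7 UMIs, and capillary ECs 0.22 to 0.48 CPM. In thinned cells 13.8% of pericytes and 11.2% of smooth muscle cells had a Prkg1 UMI, against 0.0487% of capillary ECs and 1.94% of fibroblasts.

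**Figure D3:**
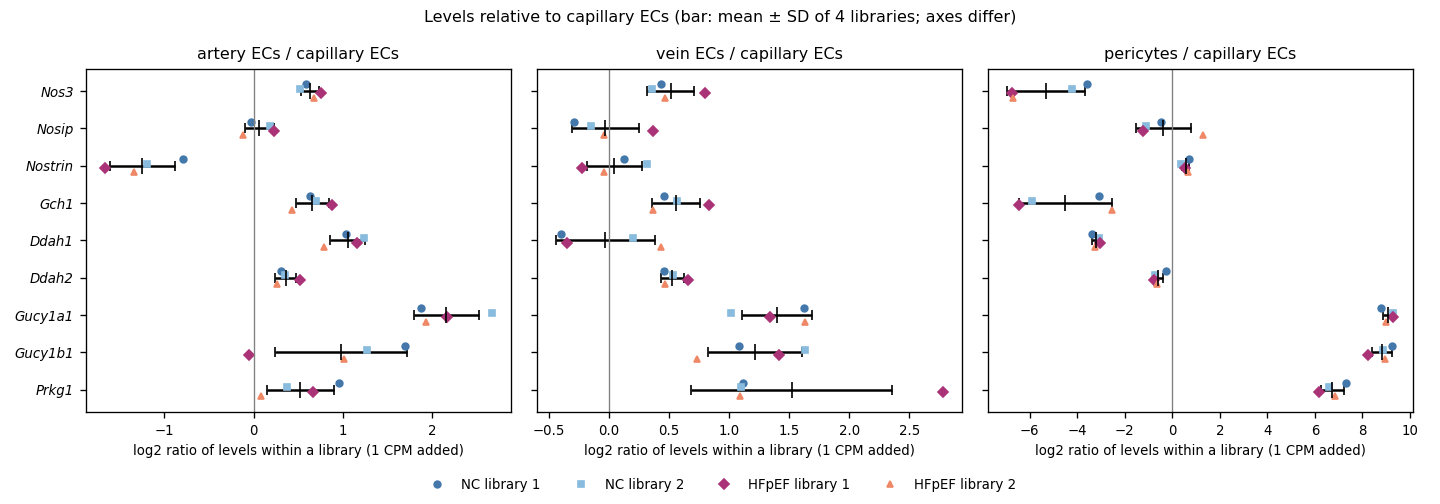
Within-library log2 ratios of CPM (1 CPM added) to capillary ECs for each gene in artery ECs, vein ECs, pericytes and smooth muscle cells, with 1 point per library and the mean. In artery ECs Nos3, Gch1, Ddah1 and Ddah2 lie above 0 and Nostrin below 0 in all 4 libraries, and in pericytes Gucy1a1, Gucy1b1 and Prkg1 lie far above 0.

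A single direction in 4 of 4 libraries was common among all genes with at least 10 CPM in either class. It was seen for 53.7% of 8086 genes between artery and capillary ECs, 42.7% of 8088 between vein and capillary ECs, 41.9% of 9231 between pericytes and capillary ECs and 39.7% of 9018 between smooth muscle cells and capillary ECs. Members such as Gucy1b1 and Nos3 reached that level in only 1 class of a pair and so had to differ, and no count of members is set against these shares. The median absolute log2 ratio over all these genes was 0.21 for artery, 0.16 for vein and 0.72 for pericytes against capillary ECs.

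Over the 28 sums of 7 classes in 4 libraries, Gucy1a1 was the gene most like Gucy1b1 of 8613 genes (Pearson r of log2(CPM + 1) 0.981), followed by Plce1 (0.959) and Gprc5c (0.955). The genes most like Nos3 were Stap2 (0.930), Plaur (0.922) and Ccm2l (0.919), and those most like Prkg1 were Fam107b (0.944), Rbms3 (0.923) and Ccn2 (0.921). These values describe the classes of 4 libraries, whose sums share their library and its depth, and the tenth most like gene still had 0.903 for Nos3, 0.928 for Gucy1b1 and 0.887 for Prkg1.

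Capillary ECs were not uniform for the synthesis genes. They formed 9 clusters of 1899 to 5529 cells. Nos3 was nearly even, between 108.0 and 133.1 CPM (means of 4 libraries), with the upper end in a cluster of shallow cells led by hemoglobin genes and highest there in 2 of 4 libraries. Gch1 varied more. It was highest in the cluster led by Ifit3 and Ifit1, which interferon induces, with 107.2 ± 20.6 CPM (highest in 3 of 4 libraries). The lowest level was in the cluster led by Klk8, Aplnr and Myl2, with 46.1 ± 2.1 CPM (lowest in 3 of 4). These clusters had median depths of 2559 and 1479 UMIs per cell, and the part of depth in the difference was not tested. Nostrin was lowest in 4 of 4 libraries in the cluster led by Pth1r and Hey1, the latter an artery marker, with 61.8 ± 12.6 CPM against means of 80.3 to 93.5 CPM in the other 8. Ddah2 was highest in the cluster led by Pgf, Apln and Ccl2, with 187.4 ± 37.0 CPM (3 of 4 libraries). These values carry no test, since the clusters come from the same cells.

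**Figure D4:**
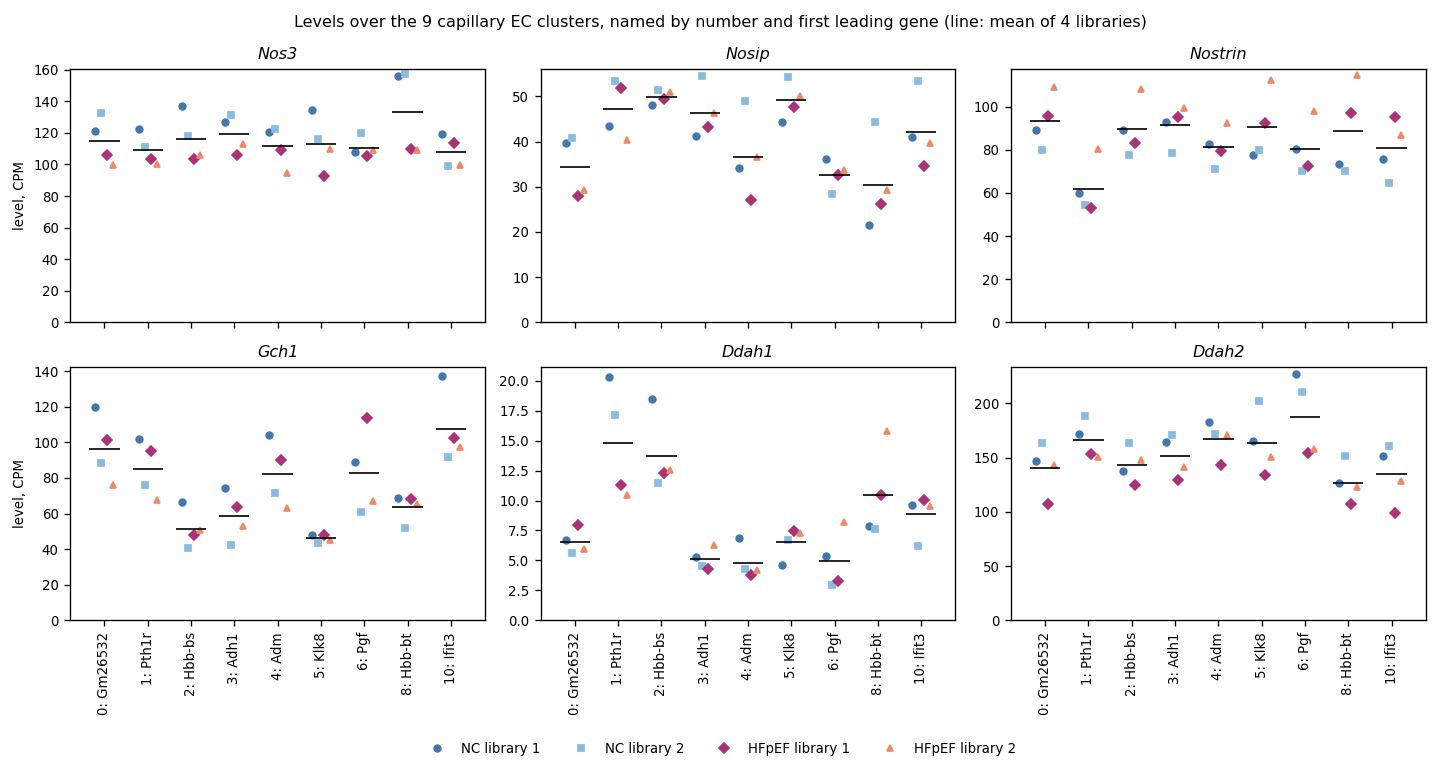
Level of Nos3, Gch1, Nostrin and Ddah2 in CPM in the 9 clusters of capillary ECs, which are named by their leading genes, with 1 point per library and a bar at the mean. Nos3 is nearly even over the clusters, Gch1 runs from a mean of 46.1 to 107.2 CPM, and Nostrin is lowest in the Pth1r and Hey1 cluster in all 4 libraries.

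The comparison of the diets asked whether the regimen, which includes an inhibitor of the synthase itself, came with other levels of these genes in a given class. None of the members tested was called between HFpEF and NC in capillary, artery or vein ECs or pericytes, the 4 classes tested, and Arg2 could be tested in none of them. In capillary ECs 8 of the 10 had enough counts for edgeR's quasi-likelihood test, and 0 had a Benjamini-Hochberg adjusted p under 0.05, as against 0.00800% of 12499 genes (1 gene, or 240 with DESeq2). At an unadjusted p under 0.05 it was 2 of 8 members, against 17.8% of all genes. With DESeq2 0 members were called, against 240 of 18553 genes. By the same test 1 member had an unadjusted p under 0.05, against 1329 of the 18553 genes.

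Nos3 in capillary ECs, with the 4 levels given above, did not overlap between the diets, and the log2 difference was -0.23 (SE 0.10, edgeR adjusted p = 0.276, unadjusted p = 0.047). Ddah2 was also lower without overlap, with a log2 difference of -0.28 (SE 0.10, edgeR adjusted p = 0.236, unadjusted p = 0.031). Nosip was lower without overlap (-0.25, SE 0.12, edgeR adjusted p = 0.318) and Nostrin higher without overlap (0.24, SE 0.12, edgeR adjusted p = 0.338). Such separation was seen for 5 of the 8 members, near the 49.9% of all genes, so it does not set them apart. With cells thinned to 1000 UMIs the differences shrank to -0.14 for Nos3 and -0.18 for Ddah2. Gch1 (0.03, SE 0.21) and Ddah1 (-0.08, SE 0.19) overlapped between the diets. Prkg1 (0.72, SE 0.52) and Gucy1b1 (0.59, SE 0.49) rested on 34 and 76 UMIs in all. The median log2 difference of the 8 members was -0.02 and their median absolute difference 0.25, against -0.003 and 0.19 over all genes tested.

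Other measures were taken in the same capillary ECs. The 4 EC markers summed to 3286 and 3379 CPM for NC against 2913 and 3117 CPM for HFpEF, with none at 0. Counted per 100 UMIs of these markers, Nos3 was 3.84 and 3.60 for NC against 3.63 and 3.34 for HFpEF, values that overlapped, whereas Ddah2 (4.997 and 5.23 against 4.48 and 4.75) and Nostrin (2.51 and 2.17 against 2.86 and 3.19) did not overlap. The 4 erythrocyte markers summed to 279 and 407 CPM for NC against 880 and 2905 CPM for HFpEF, while the 4 cardiomyocyte markers (81.2 and 62.1 against 233 and 73.0 CPM) and the 8 pericyte markers (178 and 170 against 202 and 122 CPM) overlapped between the diets. The median capillary EC held 3585.5 and 3949 UMIs for NC against 1660.5 and 1515 for HFpEF. Depth is confounded with the diet, and the part of these measures in the differences was not tested.

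In artery ECs 7 members were tested and 0 called by edgeR, against 0.401% of 9715 genes (0.309% higher and 0.0926% lower in HFpEF). At an unadjusted p under 0.05 it was 0 members (11.0% of all genes). DESeq2 called 0 members, against 15 of 15140 genes. The lowest p was that of Nosip (-0.35, SE 0.21, edgeR adjusted p = 0.570), Gucy1a1 was at -0.37 (SE 0.49) from 4.03 to 8.12 CPM, and Nos3 was at -0.06 (SE 0.14). In vein ECs 7 members were tested and 0 called by edgeR, against 0.514% of 9536 genes (0.461% higher and 0.0524% lower). Again 0 had an unadjusted p under 0.05 (11.3% of all genes). DESeq2 called 0 members in vein ECs, against 24 of 14677 genes. Nos3 was at -0.02 (SE 0.18) there. Of these members 2 were separated between the diets in artery ECs (41.8% of all genes) and 1, Ddah2, in vein ECs (42.2%). In both classes Ddah2 was below its NC values (-0.22, SE 0.14, in artery and -0.23, SE 0.16, in vein ECs), as in capillary ECs, without passing the test in any of them.

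In pericytes only 5 members could be tested, and 0 were called by edgeR, against 0% of 1853 genes, with 0 at an unadjusted p under 0.05 (6.21% of all genes) and 0 by DESeq2. The cyclase subunits were close between the diets: the log2 difference was 0.01 (SE 0.26) for Gucy1a1 and -0.05 (SE 0.24) for Gucy1b1, and Prkg1 was at -0.11 (SE 0.43). Ddah2 (-0.42, SE 0.49) and Nostrin (0.37, SE 0.44) had wider errors, from 5 to 19 UMIs per library. In counts simulated at the means and depths of these sums, edgeR called 57% of 100 genes changed 2-fold among 1891 genes in pericytes, 61% of 100 among 9732 in artery ECs, 54.5% of 101 among 9532 in vein ECs and 76.1% of 109 among 12464 in capillary ECs. Of those changed 4-fold it called 97% or more in each class. The simulation used a fixed dispersion that was not estimated from these libraries. In pericytes 100 genes were changed 2-fold and 100 others 4-fold, while edgeR called 0 genes between the diets there. About as many were changed in the other classes. More changed genes make the Benjamini-Hochberg threshold more lenient, so the shares may be too high for these libraries in any class. The simulation also changed only genes with more expected UMIs than members with few counts had, such as Ddah2, Nostrin and Prkg1 in pericytes. These shares therefore do not hold for such members. No change below 2-fold was simulated, so the lack of a call does not say that a smaller change was absent.

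**Figure D5:**
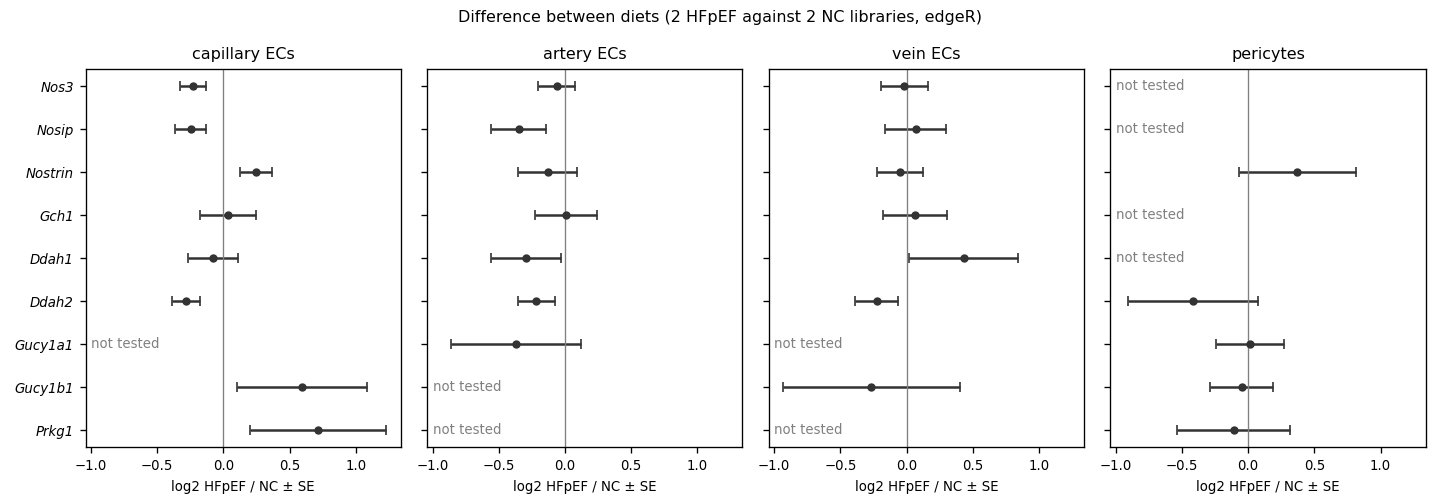
Log2 difference between HFpEF and NC for each member tested in capillary, artery and vein ECs and pericytes, from edgeR's quasi-likelihood fit. Bars are 1 standard error, derived from the F statistic of the test. None was called, and the bars of Gucy1a1 and Gucy1b1 in pericytes span 0.

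A test of whether the diet difference of a gene itself differed between classes, with library as a term, called 0 of 9 members in artery, vein or pericyte sums against capillary sums, while it called 0.239%, 0.115% and 0.0795% of 11317 genes. In pericytes Nos3 and Gch1 had 2 UMIs each and Ddah1 had 0, so the lack of a call there says nothing about these members. The filter on low counts was applied to all these sums together. Gucy1a1, Gucy1b1 and Prkg1 had only 8 to 52 UMIs each in artery and in vein ECs. Their SEs were 0.68 to 1.33 in these tests, so the lack of a call there says little about them. At an unadjusted p under 0.05 it was 1 member in artery ECs (4.94% of all genes), 0 in vein ECs (3.70%) and 1 in pericytes (5.50%). Nostrin in artery ECs differed from capillary ECs by -0.42 (SE 0.19, unadjusted p = 0.030, edgeR adjusted p = 0.895). Nosip in pericytes differed by 1.53 (SE 0.73, edgeR adjusted p = 0.882), from 17 UMIs in all, and by -0.54 without HFpEF library 2. For Nos3 the difference from capillary ECs was 0.16 (SE 0.14) in artery and 0.17 (SE 0.15) in vein ECs, so that a difference between these classes was not shown.

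The wider pathway was followed with a list of 49 further genes for synthases, their partners, cofactor and arginine supply, cyclases, kinase substrates, phosphodiesterases, export and removal. Between pericytes and capillary ECs 13 of the 49 were higher and 13 lower in 4 of 4 libraries. Of all genes with at least 10 CPM in either class 23.0% were higher and 18.9% lower. The 49 genes were counted without that minimum, so these are shares of unlike sets and do not say whether the list stands apart. The examples that follow were chosen after their values were seen. Among the guanylyl cyclases Gucy1a2, the α2 subunit, was higher in pericytes (67.3 to 105 against 0.13 to 0.60 CPM), while Npr1 and Npr2, the receptors of natriuretic peptides that also make cGMP, were lower. Of the 6 kinase and substrate genes 4 were higher, among them Mrvi1, a kinase substrate (90.1 to 247 against 0.60 to 0.95 CPM). Of 10 phosphodiesterase genes Pde1a, Pde1b, Pde3a and Pde5a were higher and Pde2a and Pde3b lower. Pde5a, which breaks down cGMP, had 30.0 to 135 CPM in pericytes and 68.8 to 209 CPM in smooth muscle cells, against 2.74 to 3.31 CPM in capillary ECs. Cygb, a globin that removes nitric oxide, had 1536 to 1919 CPM in pericytes, 376 to 488 CPM in smooth muscle cells and 2.24 to 3.10 CPM in capillary ECs. Cav1, whose product holds eNOS in caveolae, was lower in pericytes than in capillary ECs (157 to 259 against 1465 to 1571 CPM).

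Between the diets 0 of the list's genes were called by edgeR in any class, with 38, 31, 30 and 16 of the 49 tested in capillary, artery and vein ECs and pericytes. In capillary ECs 7 of the 38 had an unadjusted p under 0.05, a share near the 17.8% of all genes, 2 higher and 5 lower in HFpEF, and the median log2 difference of the 38 was -0.06. The values of the 7 follow as a description only. Hsp90aa1 and Hsp90ab1, the genes of the chaperone HSP90 that binds eNOS, were higher, at 2174 and 1452 CPM for NC against 2724 and 3355 CPM for HFpEF in the case of Hsp90aa1 (log2 difference 0.75, SE 0.21, edgeR adjusted p = 0.163) and a difference of 0.48 (SE 0.16) for Hsp90ab1. Cyb5r3, a reductase that keeps globins able to remove nitric oxide, was lower (342 and 300.1 against 222 and 223 CPM, -0.52, SE 0.11, edgeR adjusted p = 0.121). Pde2a (-0.62, SE 0.15) and Pde9a (-0.83, SE 0.27), phosphodiesterases that break down cGMP, the arginine-forming lyase Asl (-0.39, SE 0.12) and Npr2 (-0.26, SE 0.09) were the other lower values, with none past the adjusted threshold (edgeR adjusted p 0.148 to 0.232).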

How the data were processed

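The 4 libraries were deposited as UMI counts per gene and cell, which the authors made with fastp and Cell Ranger 5.0.1 on mm10 with downsampling of mapped reads per cell between samples and without division by library size. Cells with more than 200 genes and under 20% mitochondrial UMIs were kept (40154), at 10801149 to 47117650 UMIs per library. The members, the gene lists and the markers were chosen with earlier results of these data known. Named were the 10 members, genes of the wider list called between the diets or with an unadjusted p under 0.05 and separated diets in capillary ECs, and the 3 genes most like Nos3, Gucy1b1 and Prkg1. Exceptions are stated where they occur.

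Counts were scaled to 10000 per cell, and 2000 variable genes without the 10 members and the 49 genes of the wider list gave 10 principal components and 20 neighbours for clustering (Python 3.11.15, scanpy 1.11.5, igraph 0.11.9, resolution 0.8, best of 4 starts, seed 1). Clusters whose mean log2 level of a marker list was above the median cluster by 3 were put in that cell type, or in artery or vein ECs by 2, and mural clusters within 1 of the EC-marker level of ECs were set apart. Doublets were kept, since Scrublet's automatic threshold called 0 cells in each library, and 406, 359, 238 and 3488 cells of the highest scores were left out in an alternative. For shares of cells each cell was thinned to 1000 UMIs, which left out 426 and 352 cells in NC and 965 and 5214 in HFpEF. Intervals are 95% exact and, like the limits from 3 counts for a count of 0 taken over the 4 libraries, cover counting error only.

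UMI counts summed per library and class were tested with edgeR 4.0.16 in R 4.3.3 (quasi-likelihood, TMM, filterByExpr, Benjamini-Hochberg over all genes, diet as the only term). The SE given with a log2 difference was derived as its absolute value divided by the square root of the F statistic of that test. With 2 libraries against 2 an exact permutation test cannot go below p = 0.33. The fit was tested on simulated counts. Alternatives were DESeq2 1.42.0, no filter on low counts, a block for the library number, other resolutions, all clustering genes, a marker gate on each cell, the prior, cells without doublets or without 1% or more hemoglobin, thinning and each library left out. The counts without mitochondrial genes and a crossed block were added after the data were seen. Genotypes were not compared, since no label assigns one. Positions are from GENCODE on GRCm38.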

Additional observations from a re-analysis of the deposited data

How the results depend on the processing

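No member was called between the diets in capillary, artery or vein ECs or pericytes under any alternative in which it could be tested, and the ratios of Gucy1a1, Gucy1b1 and Prkg1 in pericytes to capillary ECs stayed above 0 in all of them. The number of all genes called was unstable. For capillary ECs, with 1 gene in the fit described, it was 240 with DESeq2, 1026 without the filter on low counts, 104 with a marker gate on each cell and 74 with cells thinned to 1000 UMIs, and 2 to 443 when 1 library was left out, with 443 and 144 without HFpEF 1 and HFpEF 2. For artery ECs (39 genes) it was 15, 182, 90 and 8 under these same alternatives, 15 and 10 at resolutions 0.5 and 1.2, 61 with all genes used for clustering, and 0 to 140 with 1 library left out, with 0 without NC 1 or NC 2 and 140 and 64 without HFpEF 1 and HFpEF 2. For vein ECs (49) it was 24, 205, 84 and 14, then 119 and 77, 136, and 69 to 179, with 75, 84 and 179 without NC 2, HFpEF 2 and HFpEF 1. For pericytes (0) the marker gate gave 2, thinning 4 and leaving out a library 0 to 3. The tests between classes gave 1 to 39 genes for artery, 7 to 24 for vein and 4 to 21 for pericyte sums with 1 library left out, and 16 for pericytes without the filter. A diet left with 1 library was assumed to vary like the other. With the marker gate 5 rather than 8 of all 10 members kept 1 direction between pericytes and capillary ECs. These counts had no minimum level, and no share over all genes was taken with the gate, so they are not read as a result about the members.

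Over all genes tested in a class, deviations from the diet means had little correlation between libraries of the same number. The r was -0.02 in capillary, 0.03 in artery and -0.11 in vein ECs and -0.02 in pericytes. Such a value over all genes cannot show whether a few genes were paired, so a pairing by number was not excluded. With the number as a replicate block 166, 179 and 122 genes were called in capillary, artery and vein ECs, and Nos3 in vein ECs turned to 0.0016. With the pairing crossed, which was chosen after seeing the data, the counts were 51, 235 and 203 and Gucy1b1 in vein ECs was 0.081.

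Of 400 alternative values of single members between the diets 349 kept their direction and 51 turned, all of differences that did not pass the test, and the cause was not tested. In capillary ECs Ddah1 was 0.054 at resolution 0.5 and 0.19 with the marker gate. In artery ECs Gch1 was -0.012 without the filter and at resolution 0.5, -0.035 without doublets and -0.0010 thinned. Nostrin was 0.12 at resolution 0.5, 0.073 gated and 0.22 thinned, Ddah1 0.13 gated and 0.22 thinned, and with all clustering genes Gucy1a1 was 0.23 and Nos3 0.059. In vein ECs Nos3 was 0.015 at resolution 0.5 and 0.0090 gated, and Nosip -0.021 at resolution 1.2, -0.096 gated and -0.024 thinned. Nostrin was 0.016 with all clustering genes and 0.086 thinned, Ddah2 0.062 gated and Gch1 -0.087 thinned. In pericytes Gucy1a1 was -0.059 with DESeq2, -0.12 without the filter, -0.085 at resolution 0.5 and -0.18 gated, and Gucy1b1 0.33 thinned. Leaving out 1 library gave, in capillary ECs, -0.25 to 0.10 for Ddah1 and -0.23 to 0.35 for Gch1. In artery ECs it gave -0.55 to 0.16 for Nostrin, -0.75 to 0.22 for Gucy1a1, -0.39 to 0.48 for Gch1 and -0.13 to 0.024 for Nos3. In vein ECs it gave -0.20 to 0.21 for Nos3, -0.15 to 0.36 for Nosip, -0.33 to 0.56 for Gch1, -0.31 to 0.068 for Nostrin and -0.46 to 0.61 for Ddah1. In pericytes it gave -0.23 to 0.32 for Gucy1a1, -0.54 to 0.12 for Prkg1 and -0.25 to 0.073 for Gucy1b1, and Nosip in pericytes against capillary ECs ran from -0.54 to 2.15. The ratios of the 10 genes in artery ECs, vein ECs and pericytes to capillary ECs gave 390 values over the alternatives. Of these 42 moved by more than the spread between libraries. Each alternative gave only 1 value per gene and class. Of its own values the marker gate alone moved 17, a prior of 10 CPM 12 and thinning 7. The total over all alternatives therefore does not describe the stability under these choices. Values with the gate are given above only for some ratios of Nos3, Ddah2 and Nostrin. None is given for the artery ratios of Gch1, Ddah1 and Ddah2, so their dependence on the gate is not shown. Pericyte and smooth muscle values rest on 212 and 136 cells, which limits their precision.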

Other observations

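Nos2, the gene of the inducible synthase and a member of the wider list, was noticed after its values were seen. Capillary ECs had 51.5 and 57.2 CPM in the NC libraries against 53.1 and 54.1 CPM for HFpEF, above artery ECs (9.97 to 16.4 CPM) and vein ECs (13.7 to 21.0 CPM) in 4 of 4 libraries, whereas Nos3 was lower in capillary ECs than in both. In cells thinned to 1000 UMIs the share with a Nos2 UMI was 5.13% for capillary, 1.36% for artery and 1.27% for vein ECs. Of 236 cells of the Npr3 cluster 0 and of 152 pericytes 0 had one, which allows shares of up to 1.27% and 1.97%, and the unthinned median was 4053 and 1544.5 UMIs in these against 2068 in capillary ECs. Among the capillary clusters it was highest in 4 of 4 libraries in that led by Pgf, Apln and Ccl2 (85.7 ± 14.8 CPM) and lowest in 3 of 4 in that led by Pth1r and Hey1 (38.7 ± 3.4 CPM). The values carry no test.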
